A study of Mus musculus with 12 samples.

Results

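Border-associated macrophages are the macrophages of the perivascular spaces, the leptomeninges and the other borders of the brain, and they are distinct from the microglia of the parenchyma. They take up material carried by blood and cerebrospinal fluid, and in models of amyloid deposition they are known for clearing amyloid beta around vessels. A panel of 8 genes that mark these cells was followed in mouse brain cortex: Mrc1, Cd163, Lyve1, Pf4, F13a1, Cbr2, Ms4a7 and Stab1. They were picked as cell markers from the 50563 genes of the count table, at a time when the difference of some of them between the groups was already known, so that difference is described below without a test. All 8 were in the table and 6 passed the filter on low counts, together with 15688 genes in all. Pf4 and Ms4a7 fell below it, and their fold changes come from a fit without the filter.

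Total RNA of the cortex was sequenced in 12 mice, with 1 library per mouse. The mice were E4FAD, with the genotype APOE4+/+, 5FAD-/+, which means that both groups carried human APOE4 in place of the mouse gene and were hemizygous for the 5xFAD transgenes, which the neuronal Thy1 promoter drives. DPAn-6, the omega-6 form of docosapentaenoic acid, was given by gavage to 5 mice every day at 700 mg/kg of body weight for 3 weeks. The 7 CTRL mice received the vehicle by gavage, and its antioxidants were given to both groups. The CTRL group held 2 mice of 12 months and 5 of 14 months, and the DPAn-6 group held 2 of 12 months and 3 of 14 months. There were 4 females and 3 males among the CTRL mice and 3 females and 2 males among the DPAn-6 mice, but sex was given for groups and not for each mouse. Total counts ran from 15339098 to 19500154 in CTRL mice and from 15208803 to 26520251 in DPAn-6 mice. The library of CTRL replicate 3 stood apart, with a standard deviation of 0.562 for its log2 CPM (counts scaled to library total) around the group means, against 0.206 to 0.33 in the other 11 libraries. The libraries of CTRL replicates 2 and 5 had summed counts of 10 choroid plexus genes of 2540 and 1710 CPM, against 274 to 625 CPM in the other libraries. In DPAn-6 mice most of this sum was 1 gene of the list, Enpp2, with a mean log2 CPM of 8.19.

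The markers of the panel were all counted in every library, but at low levels. Per length, the mean level in CTRL mice ran from 0.115 RPKM for Ms4a7 to 2.71 RPKM for Stab1, with Mrc1 at 0.887, Pf4 at 0.843, Cbr2 at 0.535, Cd163 at 0.514, F13a1 at 0.418 and Lyve1 at 0.273 RPKM. Stab1 was thus the highest of the panel per length, with the same place in DPAn-6 mice at 2.12 RPKM. The cortex was not sorted, and microglia make up most of its macrophages. Since these are bulk samples, fewer cells of a type and less RNA per cell cannot be told apart.

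Upstream sequence is shown for the 3 genes with a 7-base site for PU.1 and other ETS factors, the family of factors that macrophage genes commonly use. Both strands were searched for AGGAAGT, which reads ACTTCCT on the other strand, in the 250 bases before each RefSeq start on GRCm38.p6, and each sequence is given 5′ to 3′ on the strand of its gene with the site in capitals. The first is upstream of Mrc1 at chr2:14229164-14229413 on the plus strand, the second upstream of Pf4 at chr5:90772185-90772434 on the plus strand, and the third upstream of the more downstream of 2 F13a1 starts, at chr13:37049214-37049463 on the minus strand.
Mrc1: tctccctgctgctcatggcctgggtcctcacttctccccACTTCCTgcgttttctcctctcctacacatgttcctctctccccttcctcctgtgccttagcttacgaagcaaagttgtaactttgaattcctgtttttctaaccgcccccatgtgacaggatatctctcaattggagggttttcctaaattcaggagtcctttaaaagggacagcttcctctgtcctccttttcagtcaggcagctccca
Pf4: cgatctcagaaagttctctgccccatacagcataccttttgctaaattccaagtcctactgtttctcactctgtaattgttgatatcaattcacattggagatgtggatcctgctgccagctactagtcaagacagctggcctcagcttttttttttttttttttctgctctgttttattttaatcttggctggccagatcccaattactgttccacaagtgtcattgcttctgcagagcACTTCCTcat
F13a1: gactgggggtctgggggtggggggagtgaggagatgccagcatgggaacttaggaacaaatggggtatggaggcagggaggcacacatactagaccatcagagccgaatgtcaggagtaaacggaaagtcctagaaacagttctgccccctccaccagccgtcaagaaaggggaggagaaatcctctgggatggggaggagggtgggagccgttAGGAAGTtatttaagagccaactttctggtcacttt
The first base of the site lay 211 bases before the start of Mrc1, 10 before that of Pf4 and 36 before that of F13a1. The site was found for 3 of the 7 genes with a promoter entry (all but Lyve1), in 3 of their 9 windows. Of all 32851 RefSeq promoter windows of this length, 7.69% held it. The MAF site TGCTGA was present for 1 of the 7 genes, Stab1, in 1 of 9 windows, and in 16.1% of all windows. The GATA site AGATAA was present for 0 of 7 genes, in 0 of 9 windows, and in 9.99% of all windows. As the motifs were chosen after the promoters had been read, nothing is read from these shares. These matches are letters in a window and not measured binding sites.

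All 8 genes had a lower mean in DPAn-6 mice than in CTRL mice, by log2 fold changes from -1.36 for F13a1 to -0.38 for Stab1, with a median of -1.09. Over all 15688 genes tested, the median was -0.00472 and 51.3% had a fold change below 0. In 3 of the 8 genes, Mrc1, Cd163 and F13a1, no DPAn-6 mouse reached the lowest CTRL mouse, while 1.49% of all genes tested were lower and 1.73% higher without overlap. As these values had a part in the choice of the genes, nothing is read from the counts.

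**Figure D1:**
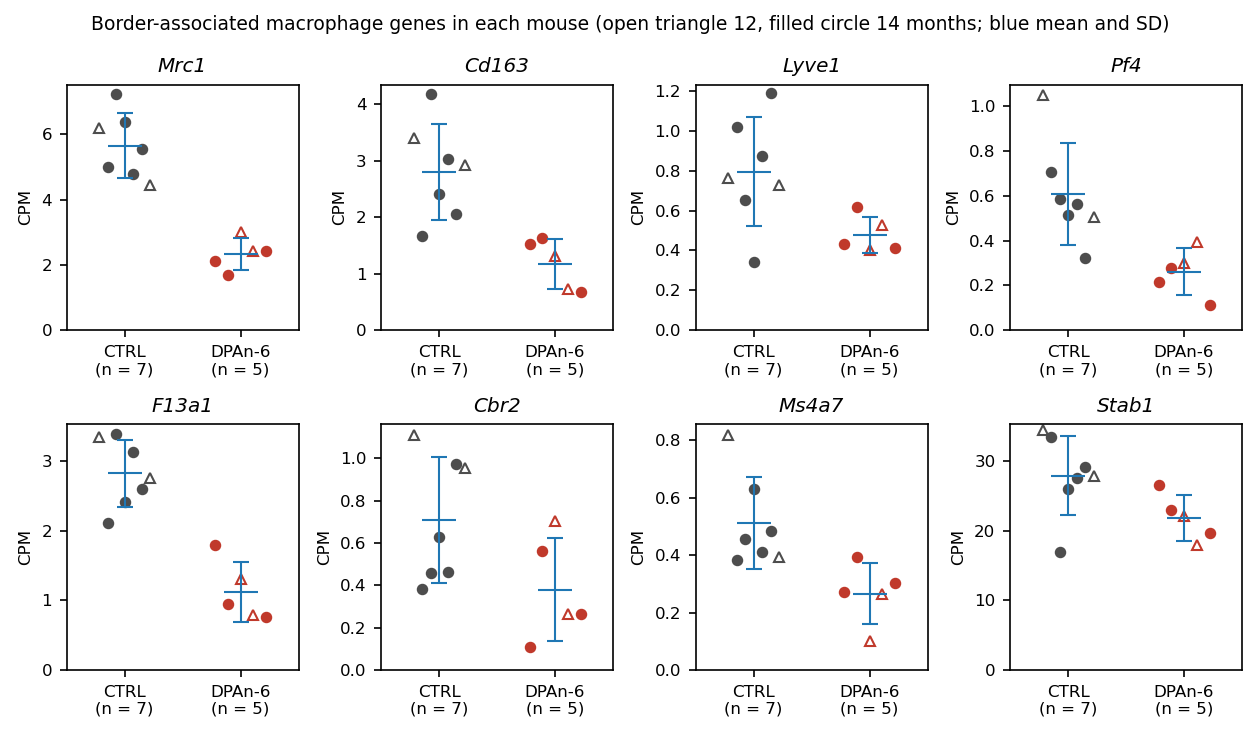
Level of each gene in CPM on a linear axis from 0 in each mouse, with CTRL in grey and DPAn-6 in red, open triangles for mice of 12 months and filled circles for mice of 14 months, and the mean ± SD in blue. The groups are apart for Mrc1, Cd163 and F13a1 and overlap for the other 5 genes.

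Stab1 and Mrc1, both endocytic receptors, had the highest counts of the panel. Mrc1 encodes the mannose receptor CD206, which takes up glycoproteins with exposed mannose, and is annotated as ENSMUSG00000026712 at chr2:14229392-14332057 on the plus strand of GRCm38. Its level in CTRL mice ran from 4.43 to 7.24 CPM with a median of 5.56, and the 5 DPAn-6 mice had 2.12, 1.68, 3.02, 2.43 and 2.41 CPM. Every DPAn-6 mouse was below every CTRL mouse, with counts of 30 to 64 against 78 to 111. The group means were 5.65 ± 1.00 (SD, n = 7) and 2.33 ± 0.488 CPM (SD, n = 5), which is 41.3% of the CTRL mean, and the fitted log2 fold change was -1.29 with a standard error of 0.169.

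Cd163 encodes the receptor for haemoglobin bound to haptoglobin, and is annotated as ENSMUSG00000008845 at chr6:124304656-124330527 on the plus strand. CTRL mice ranged from 1.67 to 4.17 CPM with a median of 2.92, and DPAn-6 mice had 1.52, 1.63, 1.31, 0.723 and 0.679 CPM. The groups did not overlap, but the gap was narrow, since DPAn-6 replicate 2 at 1.63 CPM lay next to CTRL replicate 2 at 1.67 CPM. The log2 fold change was -1.29 with a standard error of 0.272, and the DPAn-6 mean was 41.8% of the CTRL mean.

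Stab1 encodes stabilin-1, a scavenger receptor for oxidised lipoprotein and SPARC that vessel and sinus endothelium and microglia can also express, and is annotated as ENSMUSG00000042286 at chr14:31139013-31168641 on the minus strand. It had the smallest difference of the panel, with 17.0 to 34.4 CPM in CTRL mice (median 27.9) and 26.5, 23.0, 22.1, 18.0 and 19.6 CPM in DPAn-6 mice. Each of the 5 had less than the CTRL mean of 27.9 CPM, but none had less than the lowest CTRL mouse, replicate 3. The log2 fold change was -0.38 with a standard error of 0.143, and it was -0.461 without CTRL replicate 3. On the opposite strand, Stab1 shares 112 exon bases with Nt5dc2, which had 43 to 76 counts where Stab1 had 261 to 587. Whether reads were counted by strand is not given in the sources used here.

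Lyve1 encodes a hyaluronan receptor of lymphatic endothelium and of perivascular macrophages, and is annotated as ENSMUSG00000030787 at chr7:110850607-110863239 on the minus strand. CTRL mice ran from 0.344 to 1.19 CPM with a median of 0.761, and DPAn-6 mice had 0.435, 0.617, 0.402, 0.526 and 0.415 CPM. The groups overlapped, since CTRL replicate 4 was the lowest of all 12 mice with 6 counts. The log2 fold change was -0.77 with a standard error of 0.279, and 0 of 5 DPAn-6 mice fell outside the CTRL range. Of the list for lymphatic endothelium, Ccl21a had at most 5 counts in any library. The 4 genes tested were Prox1 (log2 fold change 0.10), Flt4 (-0.14), Pdpn (0.05) and Reln (-0.22). EdgeR, DESeq2 and limma-voom each called 0 of them, with 1, Reln, at an unadjusted p below 0.05 in edgeR. Reln had 1399 to 2532 counts. Which cells of the unsorted cortex these 4 transcripts came from was not tested, so they are no measure of lymphatic endothelium.

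Among the secreted and cytoplasmic products, F13a1 differed the most. It encodes the A subunit of the transglutaminase factor XIII, which cross-links fibrin, and is annotated as ENSMUSG00000039109 at chr13:36867178-37050244 on the minus strand. Its level was 2.11 to 3.39 CPM in CTRL mice (median 2.75), and 1.79, 0.953, 1.31, 0.789 and 0.754 CPM in DPAn-6 mice. The groups were apart, and DPAn-6 replicate 1 came nearest to the CTRL range. The log2 fold change was -1.36 with a standard error of 0.221, and the DPAn-6 mean was 39.7% of the CTRL mean, the smallest share of the 8 genes. An antisense gene, Gm30489, shares 74 exon bases with it.

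Pf4 encodes platelet factor 4, the chemokine CXCL4, which platelets and border macrophages both make, and is annotated as ENSMUSG00000029373 at chr5:90772435-90773383 on the plus strand. CTRL mice had 0.324 to 1.05 CPM with a median of 0.564, and DPAn-6 mice had 0.217, 0.280, 0.302, 0.395 and 0.113 CPM. In counts this was 6 to 18 against 3 to 6, and 4 of 5 DPAn-6 mice were below every CTRL mouse. In the fit without a filter the log2 fold change was -1.25 with a standard error of 0.377. Of 6 platelet genes, Gp1ba had no count in any library, Ppbp and Treml1 had at most 5 and Gp9 at most 7, while Itga2b had 14 to 53 and Gp1bb 92 to 304. The 2 that passed the filter, Gp1bb and Itga2b, had log2 fold changes of 0.10 and -0.05, and neither was called in edgeR, DESeq2 or limma-voom or had an unadjusted p below 0.05. Whether these 2 genes report platelets in this cortex was not tested.

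Cbr2 encodes a carbonyl reductase, and is annotated as ENSMUSG00000025150 at chr11:120729489-120732114 on the minus strand. CTRL mice ran from 0.384 to 1.11 CPM with a median of 0.630, and DPAn-6 mice had 0.109, 0.561, 0.704, 0.263 and 0.264 CPM. Both groups were wide and overlapped, with 2 to 14 counts in DPAn-6 mice and 6 to 19 in CTRL mice. The log2 fold change was -0.92 with a standard error of 0.400, the widest of the panel.

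Ms4a7 encodes a tetraspan-like membrane protein that separates border macrophages from microglia in the brain, and is annotated as ENSMUSG00000024672 at chr19:11321039-11336146 on the minus strand. The CTRL range was 0.384 to 0.819 CPM with a median of 0.456, and DPAn-6 mice had 0.272, 0.392, 0.101, 0.263 and 0.302 CPM. DPAn-6 replicate 2 alone overlapped the CTRL mice, and all values rest on 2 to 14 counts. Without a filter, the log2 fold change was -0.93 with a standard error of 0.365.

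Counting error set how closely single mice could be read. For Stab1 the coefficient of variation between CTRL mice was 20.5%, where the counts alone would give 4.54%, so its spread was well above counting error. For Mrc1 it was 17.7% against 10.1%, and for Cd163 30.2% against 14.4%. For Ms4a7 the observed spread was 31.2% against 33.6% from counting, and in DPAn-6 mice it was below the counting error for Lyve1 (19.0% against 33.0%), Pf4 (40.0% against 45.6%) and Ms4a7 (39.7% against 43.9%). In CTRL mice the observed spread was above it for Lyve1 (34.1% against 26.9%) and Pf4 (37.4% against 31.0%). No test of these differences was run.

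**Figure D2:**
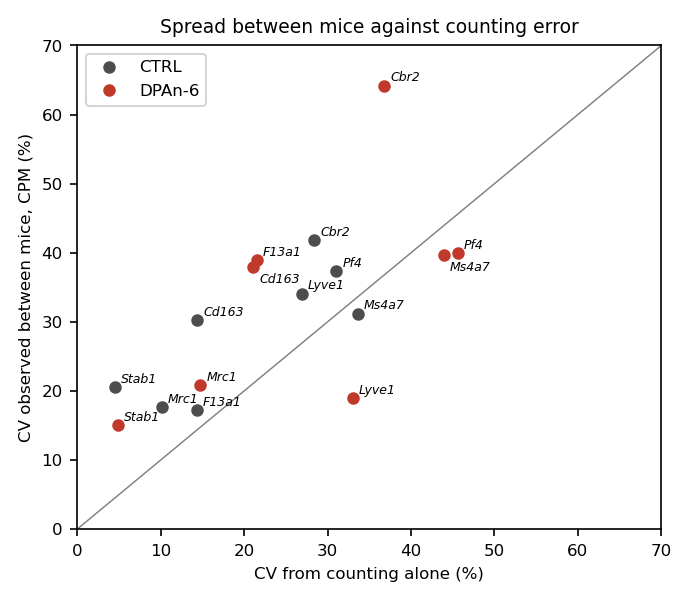
Coefficient of variation of CPM between the mice of a group (vertical axis, percent) against the one that counting alone gives (horizontal axis, percent), 1 point for each gene and group, with equality as the grey line. Stab1 lies at 20.5% against 4.54% in CTRL mice, with CTRL replicate 3 included, while Ms4a7 lies below the line in both groups.

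The genes had no shared order of mice within a group. CTRL replicate 1 was the highest CTRL mouse for Pf4, Cbr2, Ms4a7 and Stab1, and CTRL replicate 3 was the highest for Mrc1, Cd163 and F13a1 but the lowest for Stab1. CTRL replicate 2 was the lowest for Cd163, F13a1, Cbr2 and Ms4a7. Among the DPAn-6 mice, replicate 5 was the lowest for Cd163, Pf4 and F13a1. Correlations of log2 CPM centred on the group means, which leave out the difference between the groups, were computed for the 28 pairs over 12 mice. Pearson's r had a median of 0.0737 and was above 0 in 17 of 28 pairs. After Benjamini-Hochberg adjustment 0 of 28 pairs passed 0.05 by a two-sided permutation test within groups, for r and for Spearman's rho alike, with 1 and 2 pairs below 0.05 before adjustment. With 12 mice and the low counts of Lyve1, Pf4, Cbr2 and Ms4a7, a pair that did not pass is not shown to be unrelated.

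The strongest pair was Cd163 and F13a1. Its r was 0.794 (permutation p = 0.00781, adjusted p = 0.219) and its rho was 0.783 (permutation p = 0.0125, adjusted p = 0.349). With CTRL replicate 2 and DPAn-6 replicate 5 left out, the 2 mice farthest from the Cd163 median, r came to 0.678, and the 7 CTRL mice alone gave 0.935. Mrc1 and Lyve1 had the lowest r at -0.487 (permutation p = 0.102, adjusted p = 0.933), with a rho of -0.636 (permutation p = 0.0329, adjusted p = 0.461). With the 2 mice at the greatest distance from the Mrc1 median left out, this r was -0.492. Neither relation passed the adjustment.

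**Figure D3:**
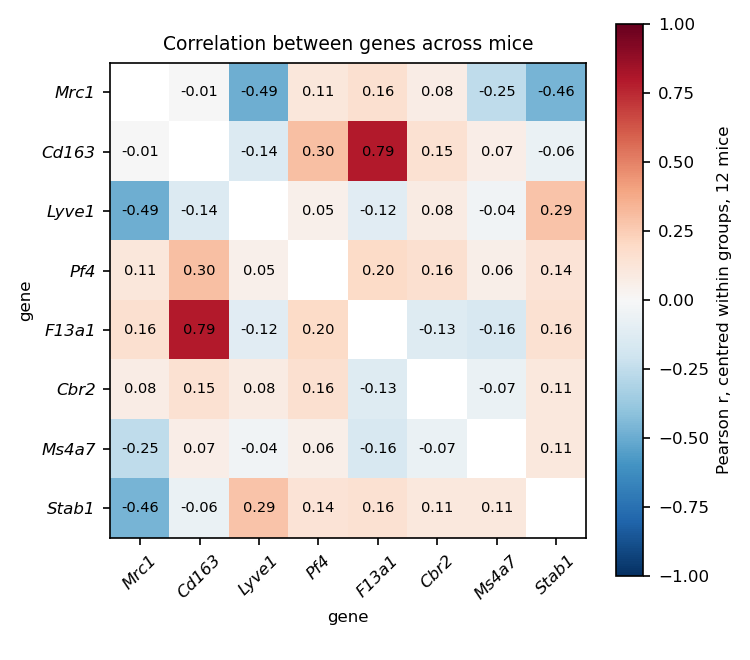
Pearson's r between the 8 genes over 12 mice, from log2 CPM centred within each group, in colour and in digits, with the same genes on both axes and the diagonal left blank. Cd163 and F13a1 stand out at 0.79, and Mrc1 with Lyve1 is the lowest at -0.49.

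The genes whose centred pattern was most like the mean of the 6 genes that passed the filter were Col6a4 (Pearson's r 0.911 over 12 mice), Rpl37rt (0.861), Has3 (0.817), Cdhr4 (0.78), Gm44033 (0.763), C2cd3 (0.758), Nepro (0.756), Slc35e1 (0.755), Gm12276 (0.75) and Airn (0.745). They are the highest of 15688 genes, they come from the same 12 libraries as the panel, and they are given as a description. Has3, a hyaluronan synthase, is also on the list of ligands and partners. Most like Stab1 were Grap (0.964), Cebpb (0.947) and Cryba4 (0.946), with 0.897, 0.847 and 0.856 without CTRL replicate 3. For Cd163 they included Ptprj (0.879) and Map3k13 (0.878), for F13a1 Hivep2 (0.876), Ccpg1os (0.872) and Hivep1 (0.861), and for Mrc1 Gm48529 (0.863), Ino80dos (0.841) and Zfp354a (0.829). These 8 values were 0.777 to 0.913 without CTRL replicate 3. For Lyve1 the 3 genes were Gm42742 (0.867), Numa1 (0.862) and Gm12063 (0.857), and for Cbr2 they were Ibtk (0.919), Adgrl2 (0.867) and Pde10a (0.863). For Ms4a7 they were Mamdc2 (0.901), Eda2r (0.895) and Zfp524 (0.876), and for Pf4 Dock5 (0.805), Gm10754 (0.795) and Gm48045 (0.779).

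The age of the mice played no part in the choice of the genes, and the 14-month mice were compared with the 12-month mice with group as a covariate. None of the 6 genes that passed the filter was called, and Pf4 and Ms4a7 had no test in this fit. None of the 15688 genes was called in edgeR, where 279 or 1.78% had an unadjusted p below 0.05, nor in DESeq2 or limma-voom. Pf4 had a log2 fold change of -0.63 with a standard error of 0.378 without the filter. The fold change was above 0 in 2 of the 8 genes and in 51% of all genes. Mrc1 had a log2 fold change of -0.09 with a standard error of 0.178, and Cd163 had -0.06 with 0.286. The largest value was that of Cbr2, at -0.77 with a standard error of 0.356 and an unadjusted p of 0.0488, which was 1 after adjustment. Cbr2 had 0.954 and 1.11 CPM in the 2 CTRL mice of 12 months and 0.384 to 0.971 CPM in the 5 of 14 months. By age, Mrc1 had 4.43 and 6.20 CPM in CTRL mice against 3.02 and 2.43 CPM in DPAn-6 mice at 12 months. At 14 months it had 4.77 to 7.24 against 1.68 to 2.41 CPM. Since its groups did not overlap over all 12 mice, each age had to show the same order, and nothing further is read from this split.

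Genes outside the panel were tested with edgeR's quasi-likelihood test, which called 1.55% of the 15688 genes at an adjusted p below 0.05, 1.14% lower and 0.408% higher in DPAn-6 mice. Of 24 further genes that mark perivascular and meningeal macrophages, 10 passed the filter and 0 was called in edgeR, while 4 had an unadjusted p below 0.05. DESeq2 called 1, Tgfbi, and limma-voom called 0. Their median log2 fold change was -0.51 and 9 of 10 were below 0, against 51.3% of all genes. This list and all the other lists were also chosen with earlier results of these data known, so nothing is read from such shares. The 4 genes, which were named after their values were seen, were Tgfbi at -0.51 with adjusted p = 0.0569 in edgeR, the tetraspan gene Ms4a6c at -0.94 with 0.162, the sialic acid receptor Siglec1 at -0.90 with 0.192 and the endocytic adaptor Dab2 at -0.61 with 0.227. The rest of the 10 had log2 fold changes of -0.72 (Wfdc17), -0.51 (Clec10a), -0.48 (Ms4a6b), -0.11 (Maf), -0.02 (Cd209f) and 0.04 (Cd38). Vsig4, Marco and Timd4 had at most 5 counts in any library.

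Family relatives of the 8 genes gave 1 call among 13 tested. Mrc2, which encodes the collagen receptor of the mannose receptor family, fell by 0.80 on the log2 scale with a standard error of 0.152 (edgeR, adjusted p = 0.0186). Its level was 14.1 to 27.7 CPM in CTRL mice with a median of 23.7, and 14.6, 15.1, 11.2, 9.53 and 15.6 CPM in DPAn-6 mice, so that the groups overlapped. Ms4a6d, a relative of Ms4a7, had a log2 fold change of -0.79 (edgeR, adjusted p = 0.0788), with 1.17 to 1.76 CPM in CTRL mice and 0.453 to 1.07 CPM in DPAn-6 mice, without overlap. The call for Mrc2 was lost with Ttr, the transthyretin gene of choroid plexus, or the mean of the leptomeningeal list as covariate, in the 14-month mice alone, without the CTRL replicates 2 and 5, and without DPAn-6 replicate 3 or 4 (0 of 13 called in each).

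Ligands, substrates and partners of the 8 genes, such as the haem and iron genes downstream of CD163, gave 0 calls among 16 tested, with 4 below an unadjusted p of 0.05 and a median of -0.0976. DESeq2 called 2, Fn1 and Sparc, and limma-voom 0. Hyal1, a hyaluronidase, was the one gene without overlap, with 4.30 to 5.38 CPM in CTRL mice and 3.91, 3.92, 3.57, 3.29 and 4.19 CPM in DPAn-6 mice (log2 fold change -0.34, edgeR, adjusted p = 0.127). Haem oxygenase 1, Hmox1, had -0.12 with a standard error of 0.153. Of the 14 growth and transcription factors of macrophages, Csf1r was called, at -0.50 with a standard error of 0.104 (edgeR, adjusted p = 0.0282). This receptor, on which macrophages and microglia depend for survival, had 204 to 334 CPM in CTRL mice and 193, 206, 162, 176 and 212 CPM in DPAn-6 mice. Its call was lost under the same covariates and subsets, and when a single mouse was left out, if that mouse was CTRL replicate 2, 4 or 6 or one of the DPAn-6 replicates 1 to 4.

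Some markers of other cell types moved with the 8 genes. Their lists were also chosen with earlier results of these data known, so nothing is read from the shares below 0 or called. Over all genes tested, 51.3% were below 0 and 1.14% were called lower. Of 14 leptomeningeal fibroblast genes 14 were below 0 and 8 were called lower in edgeR, with a median of -0.77, and their summed level was 187 to 344 CPM in CTRL mice and 108 to 211 CPM in DPAn-6 mice. The largest changes among those called were in Slc13a4 (log2 fold change -1.30), Lum (-1.23), Igf2 (-1.02) and Mgp (-0.89). Col1a2, for collagen I, had 17.7 to 26.0 CPM against 17.3, 12.5, 9.65, 12.9 and 14.1 CPM (log2 fold change -0.69, edgeR, adjusted p = 0.017). With the mean of this list as covariate, the log2 fold change of Mrc1 was -1.22, that of Cd163 -0.997, that of F13a1 -1.04, that of Lyve1 -1.11, that of Cbr2 -2.20 and that of Stab1 -0.353, and 0 genes of the whole table were called. As this covariate itself differed between the groups, the fit cannot fully separate it from group. Nothing is read from the fold changes or the lost calls of that fit. No leptomeningeal gene was called with Ttr as covariate or in the 14-month mice alone, and 2 were called without the CTRL replicates 2 and 5. With 1 mouse left out, 5 were called without CTRL replicate 1, 2 or 6, 4 without CTRL replicate 4 or DPAn-6 replicate 5, 2 without DPAn-6 replicate 2 or 4, and 1, Mgp, without DPAn-6 replicate 3. The part of leptomeningeal tissue in the difference of the 8 genes was not tested further.

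Of 12 microglia genes 3 were called lower in edgeR, Olfml3 (log2 fold change -1.19), Tmem119 (-0.77) and Selplg (-0.64), and 9 were not. The median was -0.467, and the summed level was 660 to 931 CPM in CTRL mice and 506 to 661 CPM in DPAn-6 mice. Among those not called, Cx3cr1 had -0.05 and Slc2a5 had 1.06, with adjusted p = 0.2 in edgeR for the latter. DESeq2 called 5 of 12, and 6 were called without CTRL replicate 3, against 0 with the leptomeningeal covariate, 0 in the 14-month mice alone and 1 with Ttr as covariate. Tmem119 lost its call without CTRL replicate 1, 2, 4 or 6 or any 1 DPAn-6 mouse. Of 12 disease-associated microglia genes 5 were called lower in edgeR, all without overlap, with a median of -0.654 and a summed level of 514 to 883 CPM against 321 to 483 CPM. Spp1 had 39.4 to 132 CPM in CTRL mice and 12.0 to 24.8 CPM in DPAn-6 mice (log2 fold change -2.16), and Gpnmb (-1.49), Itgax (-1.05) and Cst7 (-1.01) followed. Calls in this list were 8 without CTRL replicate 3, 3 without the CTRL replicates 2 and 5, 1 with Ttr as covariate, 0 with the leptomeningeal covariate and 0 in the 14-month mice alone. Over all genes tested, 1.14% were called lower and 1.49% were lower without overlap. Both microglia lists were chosen with earlier results of these data known, so nothing is read from their counts.

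Of 8 choroid plexus genes tested, edgeR called 0, with 7 at an unadjusted p below 0.05, DESeq2 called 4, Clic6, Kcnj13, Kl and Ttr, and limma-voom 0. In edgeR, 2 were called, Kcnj13 and Ttr, without CTRL replicate 3 or without CTRL replicate 7. The median was -2.53, and the summed level was 274 to 2540 CPM in CTRL mice and 302 to 317 CPM in DPAn-6 mice. In DPAn-6 mice most of this sum was Enpp2, whose mean log2 CPM was 8.19, against 8.62 in CTRL mice. Ttr had a mean log2 CPM of 2.19 and Kcnj13 of -0.778 in DPAn-6 mice, against 6.22 and 1.36 in CTRL mice. Without the CTRL replicates 2 and 5 the log2 fold change of Mrc1 was -1.37, that of Cd163 -1.38 and that of F13a1 -1.39. In the same setting that of Cbr2 was -1.13, that of Lyve1 -0.657 and that of Stab1 -0.319. The part of choroid plexus tissue in the difference of the 8 genes was not tested further. Of 10 genes of blood vessel endothelium edgeR, DESeq2 and limma-voom each called 0, with 2 at an unadjusted p below 0.05 in edgeR and a median of -0.0817. Of 10 mural cell genes 1 was called, Myh11 (log2 fold change -0.76), against 3 in DESeq2, 5 without CTRL replicate 3, and 0 with Ttr or the leptomeningeal list as covariate. Of 12 genes of blood monocytes, neutrophils and T cells 2 passed the filter, Itgal (log2 fold change -0.51) and Lyz2 (-0.38). EdgeR, DESeq2 and limma-voom each called 0 of them, with both at an unadjusted p below 0.05. Which cells of the unsorted cortex these 2 transcripts came from was not tested. Cd3e, Cd3g, Plac8 and Nkg7 had at most 5 counts in any library.

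**Figure D4:**
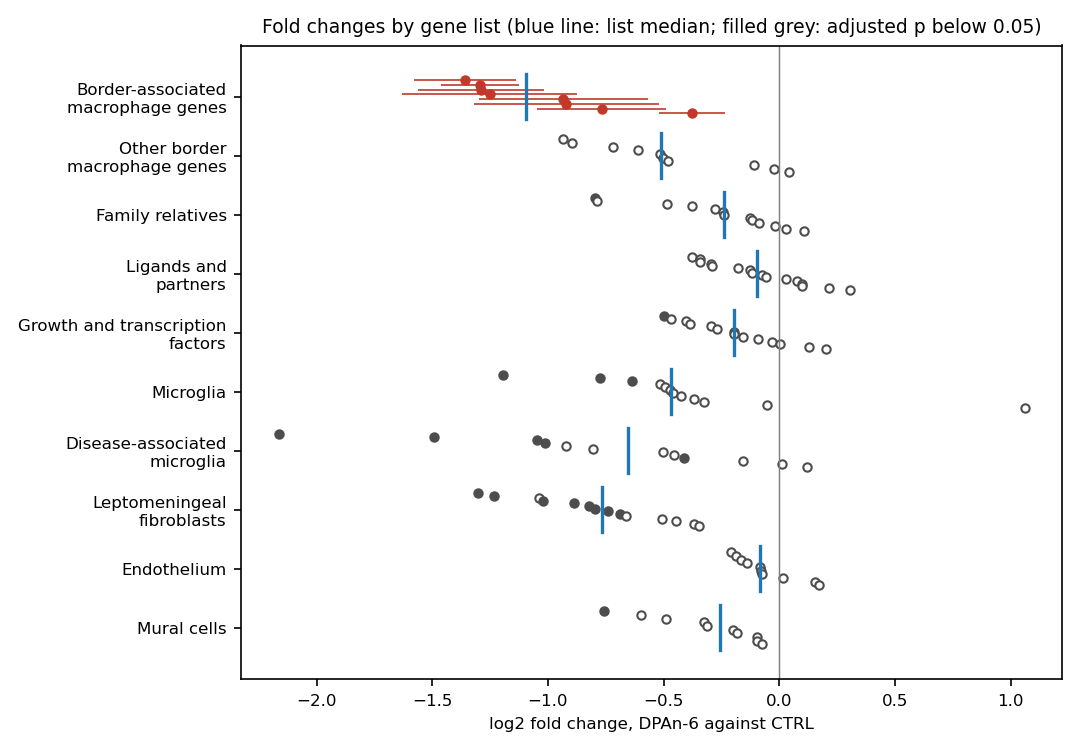
Log2 fold change of DPAn-6 against CTRL (horizontal axis) for the 8 genes in red, with standard errors, and for the tested genes of 9 further lists in grey, filled where the adjusted p was below 0.05, with each list's median as a blue line. The panel's median is -1.09, that of the leptomeningeal list -0.77 and that of endothelium -0.0817, and the lists for choroid plexus, lymphatic endothelium, blood cells and platelets are not drawn.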

How the data were processed

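Cortex RNA of 12 E4FAD mice was sequenced. The authors made poly(A)-selected KAPA mRNA libraries, aligned reads with STAR 2.5.3a (per the submitters' processing notes) to GRCm38 (mm10), and deposited raw gene counts, not normalized, as 1 table. Gene positions came from GENCODE M21, which matched 50339 of 50563 identifiers, and promoters from RefSeq. CPM divided counts by the library's total on genes, log2 CPM added 0.5 to counts, and RPKM divided by exon length too.

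Tests used edgeR 4.0.16 under R 4.3.3 (factors by TMM, filterByExpr by group, glmQLFit, glmQLFTest, Benjamini-Hochberg), checked on simulated data. The alternatives used DESeq2 1.42.0, limma-voom (limma 3.58.1), other filters, covariates or subsets, and each mouse left out. Correlations used 100000 permutations within groups.

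The 8 genes and the lists were chosen with earlier results of these data known, and the motifs after the promoters had been read. Of every other list, genes called or without overlap were named, at most 4 a list by size of change, with markers of cell types that moved with the panel, and genes outside this rule are named after their values were seen, together with the genes most like the panel, 10 for its mean and 3 for each of its genes, of which 1 is not reported here. Separate mice were the replicates, and no 2 libraries of a group agreed within counting error.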

Additional observations from a re-analysis of the deposited data

Results flagged for a closer look

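Stab1 in CTRL replicate 3 lay far from the other CTRL mice, at a log2 CPM of 4.09, from 261 counts and 17.0 CPM. Its gap to the nearest mouse was 0.601 of the range of the 7 mice, above the critical value of 0.568. Chance marks about 1 in 20 groups in this way, and 18 were examined. The same library stood apart over all genes, and without it the log2 fold change of Stab1 was -0.461.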

How the results depend on the processing

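The alternatives gave 147 fold changes between the groups, all below 0, for the genes of the panel other than Ms4a7. They ran from -1.49 to -1.19 for Mrc1, -1.43 to -0.997 for Cd163 and -1.58 to -1.04 for F13a1. The ranges were -1.11 to -0.634 for Lyve1, -2.2 to -0.688 for Cbr2 and -0.461 to -0.231 for Stab1. For Pf4, 6 alternatives gave -1.45 to -1.03. The genes were chosen with the difference of some of them already known, and the alternatives reused the same mice or part of them. The shared sign is therefore no independent evidence of a difference, and only the ranges are read here. Ms4a7 had a value only without the filter. The Cbr2 value moved beyond its spread with the leptomeningeal covariate. Over all genes, 243 were called, against 696 in DESeq2, 9 in the 14-month mice alone, 64 (without DPAn-6 replicate 3) to 953 (without CTRL replicate 3) with 1 mouse left out, and, in alternatives chosen after seeing the data, 0 with the leptomeningeal covariate, 17 with Ttr and 85 without CTRL replicates 2 and 5. Same-numbered mice deviated together with r of 0.0911, 0.0157, -0.125, 0.22 and -0.0666, with 1 of 5 closest to its own number, so the numbers do not pair the mice; with the replicate number as a block 79 genes were called, among them 0 relatives, 0 growth and transcription factors, 2 microglia, 4 disease-associated microglia, 4 leptomeningeal and 1 choroid plexus genes.

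Age calls were 0 in all 21 alternatives. Age fold changes turned to 0.124 (Mrc1), 0.0237 (Cd163) and 0.0529 (F13a1) without the group term, and to 0.311 (Cd163), -0.403 (Lyve1) and 0.252 (F13a1) with the replicate block. With 1 mouse left out they ran from -0.258 to 0.0331 (Mrc1), -0.202 to 0.0676 (Cd163), -0.207 to 0.0486 (F13a1) and -0.13 to 0.0845 (Stab1). Without centring, 6 pairs of genes passed the adjusted threshold, and with 1 mouse left out 0 to 1 did, the 1 without DPAn-6 replicate 2. The cause of these changes was not tested. Calls in the lists ranged from 0 to 1 (further border macrophage genes), 0 to 2 (relatives), 0 to 3 (ligands and partners), 0 to 2 (growth and transcription factors), 0 to 6 (microglia), 0 to 8 (disease-associated microglia), 0 to 8 (leptomeninges), 0 to 4 (choroid plexus) and 0 to 5 (mural cells). Low counts limit Lyve1, Pf4, Cbr2 and Ms4a7 most.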
